A study of Homo sapiens with 23 samples.

Results

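The nucleolar ribosome biogenesis genes described here were 41 listed gene symbols, all found among the 57875 genes of the deposited count files. They encode factors that transcribe, modify, cleave and package ribosomal RNA, and the list holds many known targets of the transcription factor MYC. RNA was sequenced from HCT116, an established human colon cancer cell line, as wild-type cells (WT) and as 4 knockout lines made by CRISPR editing of genes of the Argonaute family, the proteins that bind microRNAs. The lines were AGO1_KO, AGO2_KO, AGO1/2_KO and AGO1/2/3_KO, so that AGO1 was edited in 3 of them, AGO2 in 3 and AGO3 in 1. Each genotype was 1 line with 3 replicate libraries, grown untreated in the same medium. A difference between genotypes cannot be told apart from a difference between lines. The study reports slower growth than WT in every knockout line but AGO1_KO, slowest in the line with most edits. Growth rate and genotype thus cannot be told apart in those lines. The part of growth rate in the levels of these genes was not tested. All 41 members were protein-coding, lay on 17 chromosomes and were among the 22842 genes that passed the filter on low counts. Gene positions follow the GRCh38 build (GENCODE v44).

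Ribosomes are built in the nucleolus. RNA polymerase I transcribes the ribosomal RNA genes into a long precursor, guide RNAs in ribonucleoprotein particles (snoRNPs) direct its methylation and pseudouridylation, and assembly factors fold and cut it into the RNAs of the small and the large subunit. The genes for these factors are known to be used together in growing cells, and MYC is known to bind many of their promoters at the E-box, CACGTG.

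Library totals ran from 27709971 to 45271146 counts. Those of AGO2_KO, 40419152 to 45271146, all lay above those of WT, 29140175 to 32381721, and AGO1/2/3_KO replicate 1 had 40567975. Depth and genotype thus cannot be told apart between AGO2_KO and WT. The share of counts in the 10 genes with most counts ran from 11.8% to 18.1%, and the highest of these was AGO1_KO replicate 3. AGO1 RNA was at 27.0%, 28.0% and 24.8% of its WT level in AGO1_KO, AGO1/2_KO and AGO1/2/3_KO, and AGO3 RNA at 46.1% in AGO1/2/3_KO. AGO2 RNA was at 70.4% in AGO2_KO (edgeR adjusted p = 0.00518) and at 83.4% in AGO1/2_KO (edgeR adjusted p = 0.0924). In AGO1/2/3_KO, a line labelled as an AGO2 knockout, it was at 132% (edgeR adjusted p = 0.00477). RNA from an edited gene need not be lost. The study reports verifying the edits by DNA sequencing and finding none of the targeted proteins in the knockout lines by Western blot. The epithelial markers EPCAM, CDH1, KRT8, KRT18, KRT19 and CDX2 had at least 135 counts in every library, while KRT20 and VIL1 had at most 71. Of 11 markers of leukocytes, fibroblasts, endothelium and hepatocytes, CD3E, CDH5, ALB and APOA1 had at most 9 counts in any library, whereas COL1A1 had 260 to 1045, COL1A2 52 to 90, PECAM1 32 to 60, PTPRC 28 to 54 and LYZ 2 to 262. The headers of the AGO2_KO files carry the word quasi, which the other headers do not. Whether these libraries were quantified differently is not stated, and such a difference and the genotype cannot be told apart in any comparison with AGO2_KO.

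Of the 41 genes, 18 rose in AGO2_KO and 0 fell, where 8.55% of all genes tested rose and 10.8% fell, and 26 fell in AGO1/2/3_KO and 0 rose, where 19.8% fell and 20.3% rose. The level used here is the normalised count, the deposited estimated count divided by the library's effective size and scaled to the mean effective size of 33193397 counts. Each member's log2 level in a library was set against its mean over the WT libraries, and the median over the 41 members was taken. In the WT libraries 1 to 3 this median was 0.00, -0.04 and 0.05. It was 0.41, 0.26 and -0.10 in AGO1_KO, 0.20, 0.63 and 0.38 in AGO2_KO, 0.01, -0.28 and -0.27 in AGO1/2_KO, and -0.60, -0.44 and -0.32 in AGO1/2/3_KO. All AGO2_KO libraries thus lay above every WT library and all AGO1/2/3_KO libraries below every WT library, whereas AGO1_KO and AGO1/2_KO overlapped WT. The same median over all genes tested stayed between -0.03 and 0.04 in every library. In bulk RNA, fewer cells with a transcript and less of it per cell cannot be told apart.

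**Figure D1:**
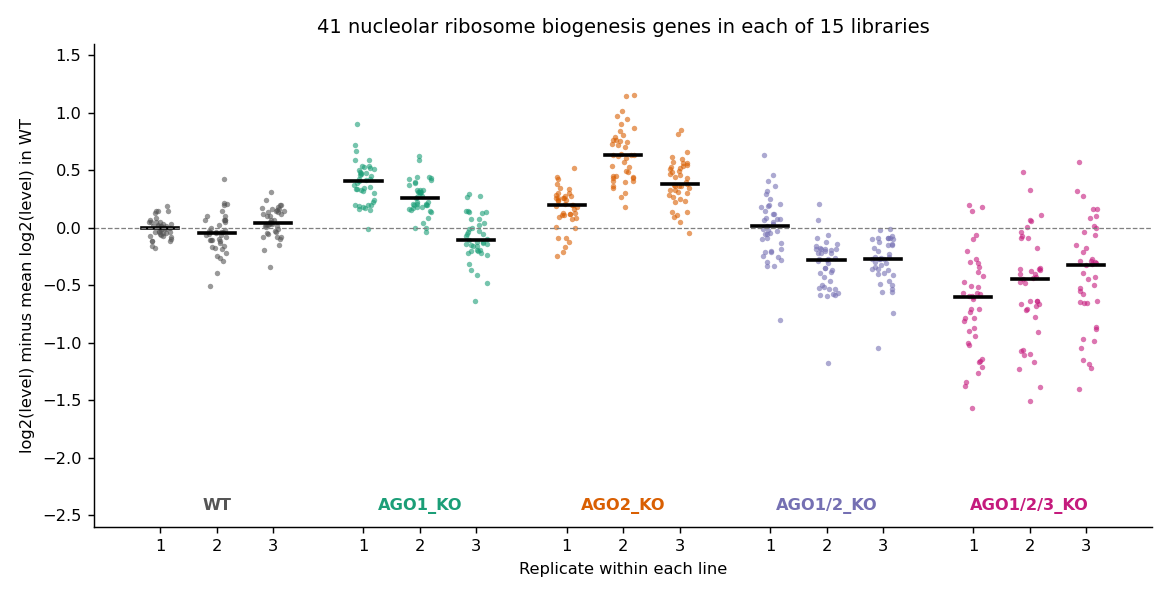
Level of each of the 41 members (points) in each of 15 libraries, on the y axis as log2 level minus the member's mean log2 level in WT, with libraries along the x axis by line and replicate and the median over members as a bar. The medians of the 3 AGO2_KO libraries lie between 0.20 and 0.63 and those of the 3 AGO1/2/3_KO libraries between -0.60 and -0.32.

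By line means, 33 of the 41 members were highest in AGO2_KO and 8 in AGO1_KO, and 35 were lowest in AGO1/2/3_KO. The order AGO2_KO, WT, AGO1/2_KO, AGO1/2/3_KO from high to low held for 34 members, and for 8.80% of the genes tested. Of all genes tested, 21.0% had their highest mean in AGO2_KO and 28.4% their lowest in AGO1/2/3_KO.

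In AGO1/2/3_KO against WT, 26 members fell and 0 rose at an adjusted p of at most 0.05, while 20.3% of all genes tested rose and 19.8% fell. At an unadjusted p of at most 0.05 the count was 29 and all of them were lower, and the DESeq2 Wald test called 25 lower and 0 higher. The median log2 fold change of the 41 members was -0.48, against -0.01 for all genes tested. The falls ran from -1.50 for BOP1 to -0.32 for RRN3. The 3 AGO1/2/3_KO libraries lay wholly below the 3 WT libraries for 28 members, including 25 of those that fell, and wholly above for UTP20 and RRS1, while 23.8% of the genes tested were separated downwards and 26.3% upwards. Leaving out 1 library at a time gave 19 to 29 falls. Here and in the comparisons below, the shares of all genes at an unadjusted p, under DESeq2 or in other fits are not given. Those counts of members thus lack a background.

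In AGO2_KO against WT, 18 members rose and 0 fell, where 8.55% of all genes rose and 10.8% fell. The DESeq2 Wald test called 20 higher and 0 lower, and 31 members had an unadjusted p of at most 0.05. The median log2 fold change was 0.43 and 40 of the 41 estimates were above 0. The rises ran from 0.35 for NAT10 to 0.84 for UTP20. The AGO2_KO libraries lay wholly above WT for 28 members, and for 18.5% of the genes tested. This count rested on few libraries: it was 0 without AGO2_KO replicate 2 or without replicate 3, 4 and 1 without WT replicates 1 and 2, 10 without AGO1/2_KO replicate 2, and 11, 7 and 11 without AGO1/2/3_KO replicates 1, 2 and 3. It was also 5 when only these 6 libraries were fitted and 4 when libraries were scaled by total counts, a scaling that moved the median of all genes to -0.14. Each of the 18 rises was lost in at least 1 of 23 other fits of these counts. Those of UTP20, DDX18 and MRTO4 were lost in 3 each, and those of UTP4, UTP15, UBTF and NAT10 in 16, 15, 14 and 13.

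In AGO1/2_KO against WT, 5 members fell and 0 rose, where 8.37% of all genes rose and 8.35% fell, so that the members' share of 12.2% was close to the background. They were BOP1, MYBBP1A, GNL3, POLR1C and PPAN, and each of them fell in AGO1/2/3_KO as well. The median log2 fold change was -0.17, 12 members had an unadjusted p of at most 0.05, and the DESeq2 Wald test called 7 lower and 0 higher. The libraries lay wholly below WT for 11 members and for 14.3% of the genes tested. Without AGO1/2_KO replicate 2 or replicate 3 the falls of POLR1C, MYBBP1A, GNL3 and PPAN did not pass (edgeR adjusted p = 0.0581 to 0.142), and BOP1 passed in both fits. The number of falls was 1 without AGO1/2_KO replicate 2, 2 without replicate 3 and 3 without AGO1_KO replicate 2.

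In AGO1_KO against WT, 1 member, BOP1, rose and 0 fell, where 3.17% of all genes rose and 5.5% fell. The median log2 fold change was 0.18, 11 members had an unadjusted p of at most 0.05, and the DESeq2 Wald test also called 1. The AGO1_KO libraries lay wholly above WT for 7 members and for 10.2% of the genes tested. The median was 0.34 without AGO1_KO replicate 3 and 0.09 without replicate 1, and the number of rises was 4 without replicate 3 and 0 without AGO1_KO replicate 1 or 2 or WT replicate 1 or 2.

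The knockout lines also differed among themselves. In AGO1/2/3_KO against AGO1/2_KO, 14 members were lower and 0 higher, where 11.9% of all genes were higher and 10% lower, with a members' median of -0.35. The AGO1/2/3_KO libraries lay wholly below AGO1/2_KO for 23 members and above for 0, where 19.6% of all genes were separated downwards and 22% upwards. Against AGO1_KO, 16 members were lower in AGO1/2_KO and 0 higher, where 11.5% of all genes were higher and 7.95% lower, with a median of -0.36, and the libraries lay wholly below for 15 members and 14.9% of all genes. Against AGO2_KO, 32 were lower in AGO1/2_KO and 0 higher, where 12.8% of all genes were higher and 11.1% lower, with a median of -0.60, and the libraries lay wholly below for 34 members and 19.9% of all genes. In this last comparison all 41 estimates were below 0, and the 9 members that did not pass were POLR1A, UBTF, RRP9, NPM1, UTP20, RRP12, BYSL, NOP2 and RRS1. The first count was 9 without AGO1/2_KO replicate 1 or AGO1/2/3_KO replicate 1 or 2. The second was 9 and 25 without AGO1_KO replicates 1 and 3 and 8 without AGO1/2_KO replicate 2. The third was 16 without AGO2_KO replicate 2 or AGO1/2_KO replicate 2. These comparisons share libraries with each other and with those against WT, and are not independent of them.

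**Figure D2:**
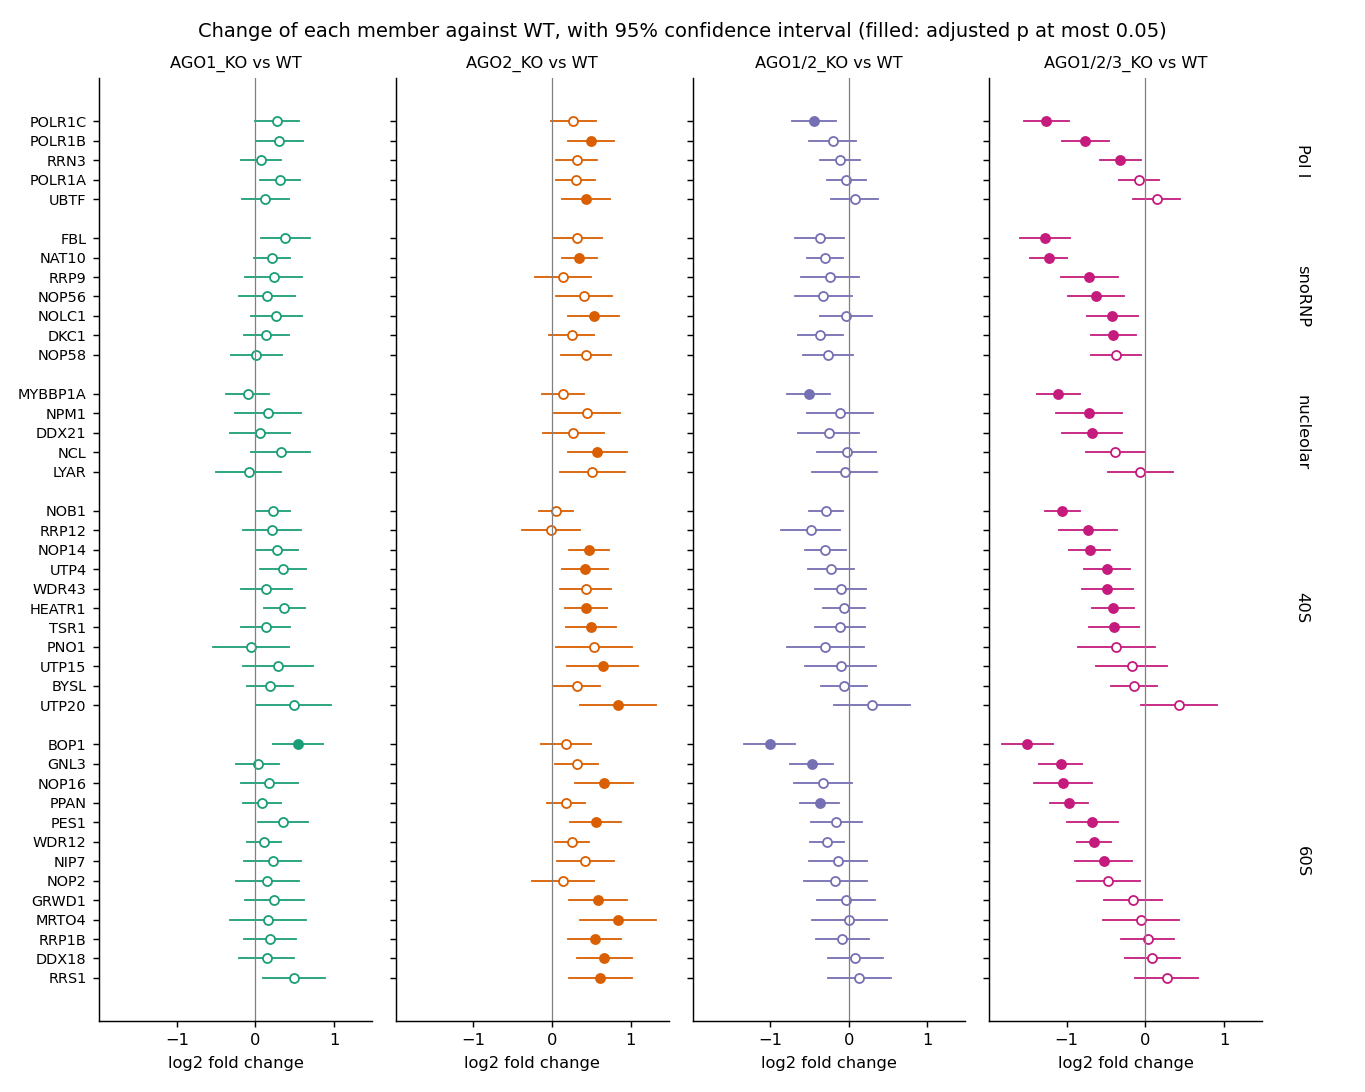
Log2 fold change against WT (x axis) of each of the 41 members (rows, grouped by role) in the 4 knockout lines, with 95% confidence intervals from the fit over 15 libraries and filled points for an adjusted p of at most 0.05. Filled points number 1 in AGO1_KO and 18 in AGO2_KO, all above 0, and 5 in AGO1/2_KO and 26 in AGO1/2/3_KO, all below 0.

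Across the 4 comparisons with WT, 9 members rose in AGO2_KO and fell in AGO1/2/3_KO (POLR1B, NOLC1, NAT10, NOP14, UTP4, HEATR1, TSR1, NOP16 and PES1). Another 9 rose in AGO2_KO and did not pass in any other line (UBTF, NCL, UTP15, UTP20, RRS1, RRP1B, DDX18, GRWD1 and MRTO4). For 12, the fall in AGO1/2/3_KO was the 1 call made, and 6 passed in no line (POLR1A, NOP58, LYAR, BYSL, PNO1 and NOP2). BOP1 was alone in rising in AGO1_KO and falling in AGO1/2_KO and AGO1/2/3_KO. The shares of all genes with each of these patterns are not given here, so the counts have no background to be read against.

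Of the 5 members that serve RNA polymerase I, 3 fell in AGO1/2/3_KO, 1 in AGO1/2_KO and 2 rose in AGO2_KO. POLR1C (chr6:43509702-43562419, plus strand), a subunit shared by RNA polymerases I and III, had 1053, 1141 and 1240 normalised counts in WT, 1598, 1418 and 1142 in AGO1_KO, 1205, 1600 and 1339 in AGO2_KO, 910, 788 and 829 in AGO1/2_KO, and 510, 436 and 488 in AGO1/2/3_KO. All AGO1/2_KO values lay under the lowest WT value and all AGO1/2/3_KO values under the lowest AGO1/2_KO value, and the log2 fold changes against WT in AGO1/2/3_KO and AGO1/2_KO were -1.26 ± 0.14 (SE, edgeR adjusted p = 3.27e-06) and -0.44 ± 0.13 (adjusted p = 0.0329). POLR1B (chr2:112541915-112579818, plus strand), the second-largest subunit of the enzyme, had 2686, 2507 and 2886 normalised counts in WT, 3907, 3224 and 2833 in AGO1_KO, 3179, 4502 and 3715 in AGO2_KO, 2530, 2230 and 2251 in AGO1/2_KO, and 1399, 1634 and 1721 in AGO1/2/3_KO. It fell in AGO1/2/3_KO by 0.77 ± 0.14 on the log2 scale (adjusted p = 0.000441) and rose in AGO2_KO by 0.50 ± 0.14 (adjusted p = 0.0246), and neither line overlapped WT. The largest subunit did not follow: POLR1A had a log2 fold change of -0.08 in AGO1/2/3_KO, with a 95% interval of -0.33 to 0.17. RRN3, the initiation factor that recruits the polymerase, fell in AGO1/2/3_KO by 0.32 with an adjusted p of 0.049, a call lost in 10 of 23 other fits. Its 4 named pseudogenes carried 11.2% to 21.5% of its own count, so its reads may be split. UBTF, which binds ribosomal DNA, rose in AGO2_KO by 0.43 (adjusted p = 0.0455) and stood at 0.14 in AGO1/2/3_KO, with an interval of -0.16 to 0.44.

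The snoRNP and modification factors were the role in which the largest share fell in AGO1/2/3_KO, 6 of 7, where 19.8% of all genes fell. Their median log2 fold change was -0.63. Of 17 other such factors outside the members, 9 fell, and the difference between roles was not tested. FBL (chr19:39834458-39846379, minus strand), the methyltransferase of box C/D snoRNPs, had 5978, 4121 and 6370 normalised counts in WT, 7657, 7293 and 6504 in AGO1_KO, 6442, 7147 and 6986 in AGO2_KO, 4668, 3606 and 4484 in AGO1/2_KO, and 2080, 2300 and 2425 in AGO1/2/3_KO. The AGO1/2/3_KO values were at most 2425 while the lowest WT value was 4121, and FBL fell to 41.3% of WT (log2 fold change -1.28 ± 0.15, edgeR adjusted p = 6.31e-06). NAT10 (chr11:34105617-34147670, plus strand), the enzyme that acetylates small-subunit ribosomal RNA, had 3776, 3712 and 3926 in WT, 4856, 4449 and 3863 in AGO1_KO, 4337, 5494 and 4685 in AGO2_KO, 3197, 2922 and 3168 in AGO1/2_KO, and 1500, 1690 and 1674 in AGO1/2/3_KO. It fell to 42.6% of WT in AGO1/2/3_KO (-1.23 ± 0.11, adjusted p = 4.16e-07), rose in AGO2_KO by 0.35 ± 0.11 (adjusted p = 0.0354), and was separate from WT in both. The rise of NAT10 in AGO2_KO was lost in 13 of 23 other fits and its fall in AGO1/2/3_KO in 0. NOLC1 (chr10:102152176-102163871, plus strand), a chaperone of snoRNPs, had 12959, 12005 and 12602 in WT, 17817, 15776 and 11494 in AGO1_KO, 14984, 21118 and 18087 in AGO2_KO, 13631, 11229 and 11802 in AGO1/2_KO, and 8438, 9466 and 10115 in AGO1/2/3_KO. Its fall in AGO1/2/3_KO of 0.42 ± 0.15 (adjusted p = 0.0377) was lost without WT replicate 1 or 3, or AGO1/2/3_KO replicate 1 or 2 (adjusted p = 0.0612 to 0.122), although the 2 groups did not overlap.

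Of the other snoRNP members, RRP9, a protein of the U3 particle, fell in AGO1/2/3_KO by 0.71, NOP56, a scaffold of box C/D particles, by 0.63, and DKC1, the pseudouridine synthase of box H/ACA particles, by 0.41. NOP58, the partner of NOP56, stood at -0.37 with an adjusted p of 0.0597 and lay wholly below WT. In AGO2_KO, NOLC1 and NAT10 were the 2 of 7 that rose, and in AGO1/2_KO 0 of 7 passed, with estimates from -0.37 to -0.04.

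Among the members listed as abundant nucleolar proteins, 3 of 5 fell in AGO1/2/3_KO, 1 fell in AGO1/2_KO and 1 rose in AGO2_KO. Per kilobase of exon, with the exons of all annotated transcripts of a gene merged, NPM1, NCL and NOLC1 had the highest levels of the 41 members in WT. They had 4547 ± 1257, 4281 ± 708 and 3154 ± 121 normalised counts per kb (SD, n = 3), and the first and second did not differ beyond their spread. The lowest was UTP20 at 202 ± 20.7. The name of the role does not rank its members by RNA level. LYAR had 758 ± 52.5 and MYBBP1A 487 ± 20.4, which were 14th and 27th of the 41. A merged length can exceed that of the transcripts in use, so this ranking depends on the annotation. NPM1 (chr5:171387116-171411810, plus strand), nucleophosmin, had 41955, 25899 and 45511 normalised counts in WT, 48997, 45301 and 32202 in AGO1_KO, 44427, 56794 and 53368 in AGO2_KO, 38727, 31601 and 34639 in AGO1/2_KO, and 19769, 22972 and 26018 in AGO1/2/3_KO. WT replicate 2 was low and overlapped AGO1/2/3_KO, yet the fall of 0.72 ± 0.20 passed (edgeR adjusted p = 0.00838), and NPM1 was the 1 member called in that comparison whose groups overlapped. NCL (chr2:231453531-231483641, minus strand), nucleolin, had 41939, 30890 and 41717 in WT, 56951, 50821 and 35219 in AGO1_KO, 48108, 64277 and 58015 in AGO2_KO, 43596, 33276 and 35428 in AGO1/2_KO, and 27348, 29080 and 31423 in AGO1/2/3_KO. It rose in AGO2_KO by 0.57 ± 0.17 (adjusted p = 0.0344), a call lost in 10 of 23 other fits. NCL stood at -0.38 in AGO1/2/3_KO, where the groups overlapped (adjusted p = 0.0953). MYBBP1A (chr17:4538897-4555386, minus strand), a nucleolar protein that binds the MYB transcription factor, had 2825, 3041 and 2836 in WT, 2884, 2899 and 2335 in AGO1_KO, 2894, 3570 and 3096 in AGO2_KO, 2446, 1924 and 1738 in AGO1/2_KO, and 1287, 1350 and 1402 in AGO1/2/3_KO. The values stepped down without overlap from WT to AGO1/2_KO and on to AGO1/2/3_KO, with log2 fold changes against WT of -0.51 ± 0.13 (adjusted p = 0.0117) and -1.11 ± 0.13 (adjusted p = 6.62e-06), and -0.60 ± 0.13 between the 2 knockout lines (adjusted p = 0.00339). DDX21, an RNA helicase, fell in AGO1/2/3_KO by 0.68, whereas LYAR stood at -0.06, with an interval of -0.48 to 0.35.

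Of the 11 small-subunit (40S) assembly factors, 7 fell in AGO1/2/3_KO, 6 rose in AGO2_KO and 0 passed in AGO1_KO or AGO1/2_KO. NOB1 (chr16:69741871-69754926, minus strand), the nuclease that makes the final cut of small-subunit ribosomal RNA, had 3304, 3012 and 3404 normalised counts in WT, 3594, 3773 and 3969 in AGO1_KO, 3043, 3676 and 3351 in AGO2_KO, 2672, 2345 and 2940 in AGO1/2_KO, and 1467, 1551 and 1650 in AGO1/2/3_KO. It fell to 48.0% of WT (-1.06 ± 0.10, edgeR adjusted p = 1.34e-06), with every AGO1/2/3_KO value below every value of the other 4 lines, while its partner PNO1 stood at -0.37 (interval -0.86 to 0.12). RRP12 (chr10:97356358-97426076, minus strand), which acts in the export of pre-ribosomes, had 1957, 2777 and 1635 in WT, 2323, 2717 and 2297 in AGO1_KO, 1794, 2500 and 2004 in AGO2_KO, 1683, 1391 and 1471 in AGO1/2_KO, and 1129, 1268 and 1438 in AGO1/2/3_KO. WT was spread widely, and the fall of 0.73 ± 0.17 (adjusted p = 0.0034) was 0.52 without WT replicate 2 and 0.92 without WT replicate 3. UTP20 (chr12:101280105-101386618, plus strand), a scaffold of the early small-subunit particle, went the other way, with 2210, 1803 and 2076 in WT, 3795, 2751 and 1974 in AGO1_KO, 2750, 4514 and 3648 in AGO2_KO, 3142, 2335 and 2007 in AGO1/2_KO, and 2322, 2835 and 3007 in AGO1/2/3_KO. It had the largest rise of the members in AGO2_KO, 0.84 ± 0.23 (adjusted p = 0.021), which was lost without WT replicate 2 or AGO2_KO replicate 2 or 3 (adjusted p = 0.0919, 0.122 and 0.0688), and the highest estimate in AGO1/2/3_KO, 0.42, which did not pass (interval -0.06 to 0.90).

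The remaining small-subunit members included further parts of the early particle. UTP4, WDR43 and HEATR1, proteins of the UtpA complex that couples transcription of ribosomal RNA to its processing, fell in AGO1/2/3_KO by 0.49, 0.48 and 0.41, and UTP15 of the same complex stood at -0.17, with an interval of -0.62 to 0.28 that holds the other estimates. NOP14 fell by 0.71 and TSR1 by 0.40, and BYSL stood at -0.14. In AGO2_KO the risers beside UTP20 were UTP15 (0.64), TSR1 (0.49), NOP14 (0.47), HEATR1 (0.43) and UTP4 (0.41).

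**Figure D3:**
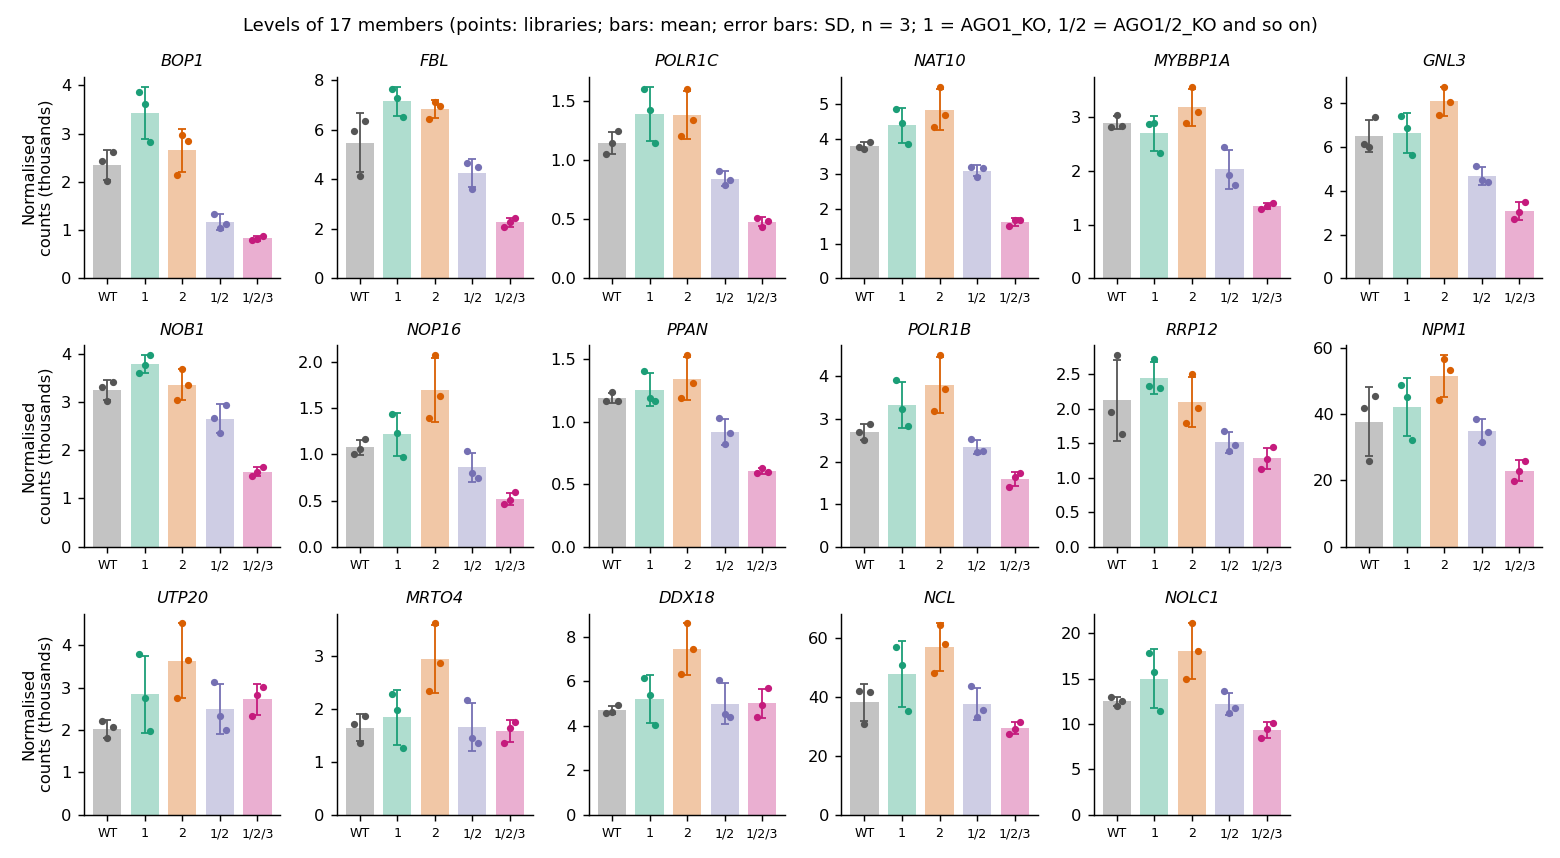
Normalised counts (y axis, from 0, scaled as labelled) of 17 members in WT, AGO1_KO (1), AGO2_KO (2), AGO1/2_KO (1/2) and AGO1/2/3_KO (1/2/3); points are libraries, bars the mean and error bars the SD (n = 3). The AGO1/2/3_KO bar is the lowest of the 5 for 15 members and lies above the WT bar for UTP20 and DDX18.

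Of the 13 large-subunit (60S) assembly factors, 7 fell in AGO1/2/3_KO, 3 in AGO1/2_KO, 7 rose in AGO2_KO and 1 in AGO1_KO. BOP1 (chr8:144262045-144291438, minus strand), a part of the PeBoW complex needed to process large-subunit ribosomal RNA, had 2422, 2007 and 2616 normalised counts in WT, 3858, 3601 and 2829 in AGO1_KO, 2150, 2970 and 2848 in AGO2_KO, 1343, 1035 and 1132 in AGO1/2_KO, and 789, 820 and 881 in AGO1/2/3_KO. It fell to 49.8% of WT in AGO1/2_KO (-1.0 ± 0.15, edgeR adjusted p = 0.000324) and to 35.3% in AGO1/2/3_KO (-1.50 ± 0.15, adjusted p = 1.89e-06), and it rose in AGO1_KO by 0.55 ± 0.15 (adjusted p = 0.0333). The rise in AGO1_KO did not pass without WT replicate 1 or 2 or AGO1_KO replicate 1 or 2 (adjusted p = 0.0699 to 0.137). The other PeBoW proteins, PES1 and WDR12, fell in AGO1/2/3_KO by 0.68 and 0.65 and did not pass in AGO1/2_KO, with estimates of -0.16 and -0.27.

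GNL3 (chr3:52681156-52694497, plus strand), nucleostemin, a GTP-binding protein of the nucleolus, had 6125, 5980 and 7328 normalised counts in WT, 7389, 6828 and 5604 in AGO1_KO, 7417, 8716 and 8027 in AGO2_KO, 5124, 4495 and 4381 in AGO1/2_KO, and 2691, 3014 and 3501 in AGO1/2/3_KO. It stepped down from WT to AGO1/2_KO (-0.47 ± 0.13, edgeR adjusted p = 0.0197) and AGO1/2/3_KO (-1.08 ± 0.13, adjusted p = 9.8e-06) with no overlap at either step. The first of these calls was lost without WT replicate 3 or AGO1/2_KO replicate 2 or 3 (adjusted p = 0.0792, 0.0803 and 0.0815). PPAN (chr19:10106362-10112012, plus strand), a factor of early large-subunit particles, had 1167, 1235 and 1169 in WT, 1410, 1191 and 1170 in AGO1_KO, 1193, 1534 and 1307 in AGO2_KO, 1032, 822 and 906 in AGO1/2_KO, and 588, 633 and 600 in AGO1/2/3_KO. It fell in AGO1/2/3_KO (-0.97 ± 0.12, adjusted p = 8.28e-06) and in AGO1/2_KO (-0.37 ± 0.11, adjusted p = 0.0366), and since it shares exons with the readthrough gene PPAN-P2RY11, whose count was 8.96% of its own, its reads may be split. NOP16 (chr5:176383946-176388927, minus strand) had 1007, 1054 and 1168 in WT, 1443, 1235 and 974 in AGO1_KO, 1396, 2078 and 1630 in AGO2_KO, 1035, 798 and 742 in AGO1/2_KO, and 462, 511 and 592 in AGO1/2/3_KO. It had the widest swing of the members called in both directions, 0.66 ± 0.17 in AGO2_KO (adjusted p = 0.0178) and -1.05 ± 0.17 in AGO1/2/3_KO (adjusted p = 0.000203).

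Part of the large-subunit group rose in AGO2_KO without falling in AGO1/2/3_KO. MRTO4 (chr1:19251805-19260128, plus strand), which holds the place of a stalk protein on the immature subunit, had 1705, 1357 and 1867 normalised counts in WT, 2274, 1978 and 1265 in AGO1_KO, 2342, 3613 and 2869 in AGO2_KO, 2166, 1443 and 1346 in AGO1/2_KO, and 1350, 1634 and 1750 in AGO1/2/3_KO. It rose in AGO2_KO by 0.84 ± 0.23 (edgeR adjusted p = 0.021) and stood at -0.06 in AGO1/2/3_KO, where the interval was -0.54 to 0.42. DDX18 (chr2:117814691-117832377, plus strand), an RNA helicase, had 4596, 4605 and 4931 in WT, 6174, 5404 and 4049 in AGO1_KO, 6317, 8616 and 7437 in AGO2_KO, 6049, 4520 and 4402 in AGO1/2_KO, and 4411, 4928 and 5692 in AGO1/2/3_KO. It rose in AGO2_KO by 0.66 ± 0.16 (adjusted p = 0.0148). The AGO2_KO libraries lay wholly above WT for both genes, and both calls were lost without WT replicate 2 or AGO2_KO replicate 2 or 3 (adjusted p = 0.0582 to 0.12). RRS1, GRWD1, RRP1B and PES1 rose in AGO2_KO by 0.61, 0.58, 0.54 and 0.55, and the first 3 stood at 0.27, -0.16 and 0.03 in AGO1/2/3_KO. NIP7 fell there by 0.53, and NOP2 stood at -0.47 with an adjusted p of 0.0586.

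The members also varied together within lines. In AGO2_KO, replicate 2 had the highest value for all 41 members and replicate 1 the lowest for all 41. In AGO1_KO, replicate 3 was lowest for 40, in AGO1/2_KO, replicate 1 was highest for 40, and in AGO1/2/3_KO, replicate 1 was lowest for 37. Over all genes tested, those libraries were the highest or lowest of their line for 35% to 37.8%. The median range within a line, on the log2 scale, was wider for members than for all genes in AGO1_KO (0.48 and 0.40) and AGO2_KO (0.45 and 0.32), alike in AGO1/2_KO (0.38 and 0.37), and narrower in WT (0.24 and 0.47) and AGO1/2/3_KO (0.24 and 0.29). The members are not 41 separate observations of a line.

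The composition of the libraries moved with the members inside lines. In WT, AGO1_KO, AGO2_KO and AGO1/2/3_KO the library with the lowest members' median had the highest share of counts in its 10 leading genes (14.5%, 18.1%, 14.7% and 13.9%), which was not so in AGO1/2_KO, and in all 4 knockout lines the library with the highest members' median had the lowest share (13.6%, 12.1%, 11.9% and, in AGO1/2_KO, 13.3%). With this share as a covariate, a fit chosen after seeing the data, 29 members rose in AGO1_KO and 31 in AGO2_KO, and 5 fell in AGO1/2_KO and 30 in AGO1/2/3_KO. The share of all genes called in that fit is not given here, so these counts have no background to be read against. In the same fit the median of the members in AGO1_KO was 0.47 in place of 0.18. In the AGO1/2/3_KO line the shares, 13.9%, 12.2% and 11.9%, lay within the range of WT, 11.8% to 14.5%. The mitochondrial share of counts, in contrast, was wholly below WT in AGO1/2/3_KO (7.43%, 6.64% and 6.67%, against 7.83%, 8.34% and 8.30%), wholly above it in AGO1/2_KO (8.52% to 9.11%) and AGO1_KO (8.60% to 10.2%), and overlapped it in AGO2_KO (7.41% to 8.65%). The part of either share in the members' levels was not tested.

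Promoter sequences of RefSeq (GRCh38.p14), 250 bases before to 50 bases after an annotated start site, were at hand for 34 members in 42 windows. They were searched on both strands for the E-box CACGTG, which reads the same on either strand. It was present in 16 of the 34 members, or 47.1%, and in 11.7% of the 13295 tested genes with a window. By window the shares were 38.1% of 42 and 8.83% of 18937. Of the members that fell in AGO1/2/3_KO, 10 of 23 held it, and of the others 6 of 11. The list holds many known MYC targets, and MYC is known to bind at the E-box. The higher share among members than among all genes is thus not independent of how the list was chosen. The stretches below show the E-box in 4 members among those with the largest falls in AGO1/2/3_KO and in the 2 with the largest rises in AGO2_KO, and were chosen because they hold it. POLR1C, NOB1, NOP16 and PPAN, which also fell strongly, had windows without these letters, and BOP1 had no window. Sequences are on the strand of the gene from 5′ to 3′, with the E-box in capitals.
FBL, chr19:39846356-39846385, minus strand: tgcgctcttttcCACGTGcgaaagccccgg
NAT10, chr11:34105602-34105631, plus strand: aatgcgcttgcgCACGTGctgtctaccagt
MYBBP1A, chr17:4555340-4555369, minus strand: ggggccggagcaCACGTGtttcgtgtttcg
GNL3, chr3:52686026-52686055, plus strand: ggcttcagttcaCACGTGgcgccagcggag
UTP20, chr12:101280083-101280112, plus strand: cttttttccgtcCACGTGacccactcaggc
MRTO4, chr1:19251807-19251836, plus strand: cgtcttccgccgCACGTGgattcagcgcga

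The first base of the E-box lay 15 bases upstream of the start site in NAT10 and 10 upstream in UTP20, and at base 7 of the transcript in FBL, 28 in MYBBP1A, 15 in MRTO4 and 7 in GNL3, for 1 of the 2 start sites listed for GNL3. FBL, NAT10, MYBBP1A and GNL3 fell in AGO1/2/3_KO by 1.28, 1.23, 1.11 and 1.08, while UTP20 and MRTO4, with the same letters at a like distance, did not pass there. A match of 6 letters is a description of the sequence and not a bound site.

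MYC (chr8:127735434-127742951) itself had 9946, 7499 and 10410 normalised counts in WT, 9886, 10309 and 10276 in AGO1_KO, 10475, 12048 and 9322 in AGO2_KO, 4519, 5269 and 5637 in AGO1/2_KO, and 1688, 1953 and 2186 in AGO1/2/3_KO. It fell in AGO1/2_KO by 0.85 ± 0.14 (edgeR adjusted p = 0.000608) and further in AGO1/2/3_KO (log2 fold change -2.26 ± 0.14, adjusted p = 1.64e-08), and its level in AGO1/2/3_KO was 20.9% of WT. In AGO2_KO, where 18 members rose, MYC stood at 0.19 ± 0.14 and did not pass (adjusted p = 0.333), and in AGO1_KO at 0.13 ± 0.14 (adjusted p = 0.636). The part of MYC in the members' levels was not tested.

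The members BOP1 and RRS1 lie on chromosome arm 8q, where many genes had moved in the lines with more than 1 edit. The arm held 353 genes that averaged 1 CPM or more (CPM scales counts to library size), and their median log2 fold change was -0.51 in AGO1/2_KO and -0.46 in AGO1/2/3_KO, against 0.02 and 0.04 for 15560 genes elsewhere, and 193 and 185 of the 353 fell. Within 5 Mb of BOP1, 65 of 94 genes fell in AGO1/2_KO, with a median of -0.68, and 69 in AGO1/2/3_KO, with a median of -0.79. Within 5 Mb of RRS1 (chr8:66429014-66430733), 0 and 3 of 26 genes fell and 5 and 13 rose. BOP1 fell by more than the median of its neighbours in both lines, and RRS1 did not pass in either. MYC is also on 8q. So is the edited gene AGO2, at -3.74 Mb from BOP1 and thus among its neighbours within 5 Mb. Both lines with the lower arm carry the AGO2 edit, as does AGO2_KO. In AGO2_KO the median of the arm was 0.03 and 39 of the 353 genes fell. Within 5 Mb of BOP1 the median in AGO2_KO was -0.16 and 21 of 94 genes fell. The part of this arm, or of the editing at AGO2, in the changes of BOP1 and MYC was not tested. Without BOP1 and RRS1, 25 of 39 members fell in AGO1/2/3_KO, 4 in AGO1/2_KO and 17 rose in AGO2_KO.

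**Figure D4:**
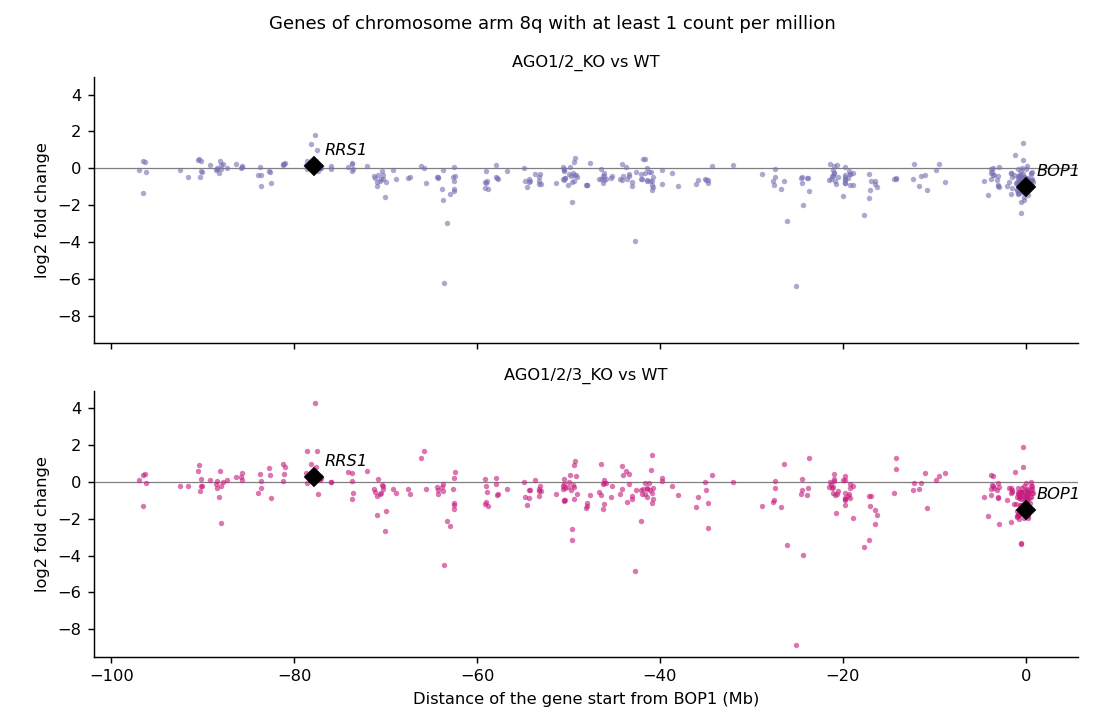
Log2 fold change against WT (y axis) of 353 genes on chromosome arm 8q by distance of the gene start from BOP1 in Mb (x axis), in AGO1/2_KO and AGO1/2/3_KO, with BOP1 and RRS1 as diamonds. Most points near BOP1 lie below 0, with medians within 5 Mb of -0.68 and -0.79, and of 26 genes within 5 Mb of RRS1, 0 and 3 fell, with medians of 0.13 and 0.36.

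Small nucleolar RNA genes lie within 9 of the members, 28 in all, with 6 in GNL3, 5 in NOP56 and 4 in NOP58, where 2 of those in GNL3 are overlapping entries. These hosts, which release guide RNAs from their introns, were POLR1C, NOP56, NOP58, DKC1, NCL, WDR43, TSR1, PPAN and GNL3. In AGO1/2/3_KO 7 of the 9 hosts fell, all but NCL and NOP58, beside 19 of the 32 other members. The members that fell had a median of 3213 normalised counts in WT and the others a median of 2029, with ranges of 988 to 37788 and 947 to 38182.

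The other genes of the pathway were a list of 135 further factors, all of them tested. In AGO1/2/3_KO 62 fell and 5 rose, or 45.9% and 3.70%, where 19.8% of all genes fell and 20.3% rose, and their median log2 fold change was -0.33. In AGO2_KO 46 rose and 0 fell, where 8.55% of all genes rose and 10.8% fell, with a median of 0.34. In AGO1/2_KO 19 fell and 0 rose, or 14.1% lower, where 8.35% of all genes fell and 8.37% rose. DCAF13, UTP23, POLR2K and EXOSC4 of this list, all on arm 8q, were at -0.92, -0.89, -0.66 and -0.65 in that line. The list was not counted without them. In AGO1_KO 2 rose and 1 fell, where 3.17% of all genes rose and 5.5% fell. The difference between this list and the 41 members was not tested. Among 15 other subunits of RNA polymerase I and its promoter factor SL1, 8 fell in AGO1/2/3_KO, most of all POLR1H (-1.48 ± 0.12, edgeR adjusted p = 2.25e-07), and 3 rose, most of all POLR1G (0.63 ± 0.21, adjusted p = 0.0258). Of 17 other modification factors 9 fell and 0 rose, led by DIMT1, a methyltransferase of small-subunit ribosomal RNA, at -1.01. Of 43 other small-subunit factors 19 fell and 0 rose, led by DCAF13 at -1.17, which is on chromosome 8 too. Of 46 other large-subunit factors 21 fell, led by RSL24D1 at -1.31, and 1 rose, DDX24, at 0.54. Of 14 genes of the RNA exosome, the nuclease that trims ribosomal RNA precursors, 5 fell, led by EXOSC5 at -1.63, and 1 rose, EXOSC10, at 0.46.

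**Figure D5:**
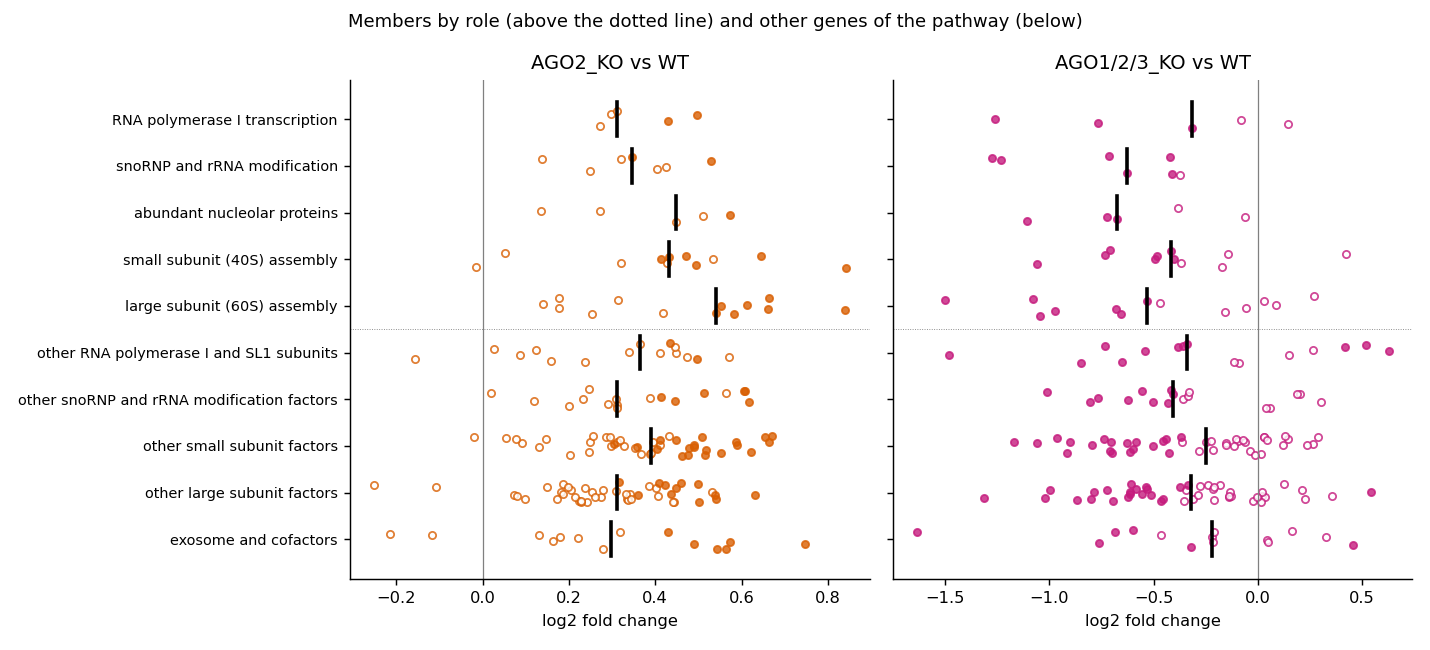
Log2 fold change against WT (x axis) in AGO2_KO and AGO1/2/3_KO of the 41 members by role (5 upper rows) and of 135 other genes of the pathway (5 lower rows), with filled points for an adjusted p of at most 0.05 and a bar at each list's median. In AGO2_KO the medians of all 10 lists lie above 0 and in AGO1/2/3_KO all lie below 0.

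Across the roles, the median log2 fold change in AGO1/2/3_KO was -0.68 for the members listed as abundant nucleolar proteins and -0.63 for the snoRNP factors. It was -0.53, -0.41 and -0.32 for the large-subunit, small-subunit and RNA polymerase I factors, against -0.01 for all genes tested. In AGO2_KO it ran from 0.54 for the large-subunit factors to 0.45, 0.43, 0.35 and 0.31 for the abundant nucleolar, small-subunit, snoRNP and RNA polymerase I factors, against -0.02. The difference between roles was not tested.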

How the data were processed

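RNA-seq was analysed for 15 libraries of HCT116 cells, 3 from each of 5 lines. The 8 eCLIP samples were not analysed here. The authors deposited 1 table of estimated counts per library (Salmon 0.11.0 and STAR 2.5.3a with hg38 per the processing notes; the study's methods name other versions of both tools and give the transcriptome as Gencode v75); from 30.8% to 33.8% of the values were not whole, and they were rounded. The kit was strand specific. Symbols and positions came from GENCODE v44 (GRCh38), which held 57167 of the 57875 identifiers.

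Counts were fitted with the quasi-likelihood test of edgeR 4.0.16 (R 4.3.3), TMM scaling, filterByExpr and 1 model of the 5 lines over all 15 libraries, leaving 22842 genes. p-values were adjusted by Benjamini-Hochberg over these, and calls made at 0.05. Alternatives were DESeq2 1.42.0, other scalings and filters, only the 6 libraries compared, a replicate block and leaving out each library. The scripts were tested on simulated data. The members, roles and pathway lists were chosen with earlier results of these data known. Values in every library were printed for the 12 members with the largest called change in AGO1/2/3_KO against WT, the 3 largest in each other comparison with WT and the 3 with the highest level. Outside the list they were AGO1, AGO2, AGO3, MYC and the largest called rise and fall of each pathway list. The replicates are described as biological triplicates of 1 line each, so p-values measure the spread between cultures of a line.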

Additional observations from a re-analysis of the deposited data

How the results depend on the processing

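Of 504 values recomputed under other settings (the counts of members called and the median log2 fold changes in 7 comparisons), 460 stayed within 1.5 times the count or within the spread between libraries and 44 did not. Counts of 0 that stayed at 0 are among the 460, so this number says little about how stable the calls were. A change of direction was possible only for the medians, and 0 of them changed direction. Of the 26 falls in AGO1/2/3_KO against WT, 19 passed under all 23 alternatives fitted (not counting the restriction to members outside 8q), as did 1 of 5 falls in AGO1/2_KO (BOP1), 0 of 18 rises in AGO2_KO and 0 of 1 in AGO1_KO.

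The single rise in AGO1_KO became 0 with total counts, the replicate block, only the 6 libraries compared or members outside 8q, and 29 with the share of the 10 leading genes as a covariate, where the median was 0.47. The 18 rises in AGO2_KO became 4 with total counts, 5 with only the 6 libraries and 31 with the covariate. The 5 falls in AGO1/2_KO became 12 with total counts, 8 with at least 10 counts in every library, 3 with the block and 2 with only the 6 libraries, and the covariate gave 1 rise there and 1 in AGO1/2/3_KO. With total counts the median in AGO1/2/3_KO was -0.63. With the covariate, 28 members were lower in AGO1/2/3_KO than in AGO1/2_KO and 35 lower in AGO1/2_KO than in AGO1_KO. The shares of all genes called under these other settings are not given here, so the counts lack a background. The cause of these shifts was not tested.

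Leaving out 1 library gave 0 to 4 rises in AGO1_KO, 0 to 24 in AGO2_KO, 1 to 6 falls in AGO1/2_KO with a median of -0.31 to -0.12, and a median of -0.59 to -0.42 in AGO1/2/3_KO. It gave 9 to 18 falls between AGO1/2/3_KO and AGO1/2_KO, 8 to 25 between AGO1/2_KO and AGO1_KO, and 16 to 38 between AGO1/2_KO and AGO2_KO. Same-numbered libraries of different lines did not deviate together on average (mean r of -0.01 over 30 pairs, 5 of them above 0.1). Single pairs ran from -0.22 to 0.29, and an average cannot exclude pairing between some of the lines. With the replicate block 13 members rose in AGO2_KO and 23 fell in AGO1/2/3_KO. The precision of every value is limited by 3 libraries a line.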
